A study of Mus musculus with 2 samples.

Results

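The miR-15/16 family is a set of miRNAs among the mature mouse miRNAs that read AGCAGCA at bases 2 to 8, the stretch called the seed. Its 6 members examined here, mmu-miR-15a-5p, mmu-miR-15b-5p, mmu-miR-16-5p, mmu-miR-195a-5p, mmu-miR-322-5p and mmu-miR-497a-5p, were chosen by name, with earlier results of these data known, from 1915 mature miRNAs listed for each library. Small RNA was sequenced from exosomes of CT26 cells, a colorectal carcinoma line derived from Balb/C mice, with 1 library for each condition. Parental CT26 cells grew in complete DMEM whose serum had been depleted of exosomes for the collection. The SDCSCs are spheroids expanded from the same line for 2 weeks in DMEM/F12 with N2 supplements, 10 ng/ml bFGF and 10 ng/ml EGF, without serum. Cell state and medium therefore changed together and cannot be told apart, and both conditions rest on 1 cell line.

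A miRNA guides an Argonaute protein to messenger RNAs that pair with its seed, which lowers their translation and stability. Members of the miR-15/16 family are known to restrain the cell cycle, with cyclins D and E, CDK6, WEE1 and CHEK1 among their targets, and miR-15a and miR-16-1 also target BCL2. The human counterpart of the miR-15a/16-1 locus is deleted in many chronic lymphocytic leukaemias, from which the name of tumour suppressor derives. Vesicles carry mature miRNAs out of the cell, so an exosome library reports what was collected from the medium and not the level inside the cell.

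The mature sequences are shown because the seed is common to the family and the remaining bases separate the members. They are given 5′ to 3′ from RefSeq (GRCm38.p6), with the seed in capitals.
miR-16-5p: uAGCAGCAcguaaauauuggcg
miR-195a-5p: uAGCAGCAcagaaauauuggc
miR-15a-5p: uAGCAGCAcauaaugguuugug
miR-15b-5p: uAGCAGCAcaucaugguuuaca
miR-497a-5p: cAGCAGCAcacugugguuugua
miR-322-5p: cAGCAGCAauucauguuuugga

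Counted from 1 at the 5′ end, miR-195a-5p was the member closest to miR-16-5p, from which it differed by G10A and U11G over 21 compared positions. Between miR-15a-5p and miR-15b-5p there were 4 differences, A12C, G20A, U21C and G22A. At the other extreme, miR-16-5p and miR-497a-5p were identical at 11 of 22 positions. Over all 6 members 9 of 21 positions held a single base, the 7 of the seed among them. Members were thus at least 2 bases apart, but whether the authors' counting allowed mismatches is not given in the sources used here, so a few reads of the rarer members could have been exchanged with miR-16-5p. The letters GGAG, described for miRNAs sorted into exosomes, were present in 0 of the 6 members and in 14.2% of the 1679 mature mouse miRNAs of the same table.

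The members come from 4 loci, given in GRCm38, which is the mm10 build that the submitters' processing notes name. The hairpins of miR-15a and miR-16-1 lie on the minus strand of chromosome 14, with the mature miR-15a-5p at chr14:61632075-61632096 and miR-16-5p at chr14:61631936-61631957. Both are inside Dleu2 (ENSMUSG00000097589.9), a noncoding transcript, where the annotation places Mir15a in an intron and Mir16-1 over an exon of at least 1 transcript. A second copy of miR-16-5p lies at chr3:69009918-69009939 on the plus strand, next to miR-15b-5p at chr3:69009775-69009796. Both sit in an intron of Smc4 (ENSMUSG00000034349.14), which encodes a condensin subunit. On the plus strand of chromosome 11, miR-497a-5p at chr11:70234730-70234751 and miR-195a-5p at chr11:70235062-70235082 overlap no gene other than miRNA genes. The X-linked miR-322-5p, the mouse counterpart of human miR-424, lies on the minus strand at chrX:53054306-53054327. It is the first of 7 hairpins within 6353 bases.

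The recovered reads came to 32162 in the parental and 3964 in the SDCSC library, counting each miRNA once, so the parental library was 8.11 times as deep. The floor used here, the share of 3 reads, was 0.00933% in parental and 0.0757% in SDCSC exosomes. Shares are percentages of these totals with 95% Wilson intervals, which cover counting error only, since PCR copies of a molecule are counted apart and there was 1 library for each condition. Of 8 markers of the labelled colonic origin, 3 were read in parental and 2 in SDCSC exosomes. The epithelial miR-200a-3p, miR-200b-3p, miR-200c-3p, miR-141-3p and miR-429-3p had 0 reads in parental exosomes and 2 reads together in SDCSC exosomes. The intestinal miR-192-5p had 48 parental reads, miR-194-5p 5 and miR-215-5p 2, and all 3 had 0 in SDCSC exosomes.

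The family made up a small part of the exosomal miRNAs and consisted largely of miR-16-5p in both libraries. Its 6 members summed to 595 reads in parental exosomes, 1.85% of miRNA reads (1.71 to 2.00%), and to 55 reads in SDCSC exosomes, 1.39% (1.07 to 1.80%). The SDCSC share was 0.75 times the parental share, a log2 ratio of -0.42 with an exact 95% interval from -0.84 to -0.015. The upper bound lay close to 0. When the total of each library excluded its own most abundant miRNA, miR-99b-5p in parental and miR-21a-5p in SDCSC exosomes, the log2 ratio was -0.25. The interval, -0.67 to 0.15, then included 0. Fewer vesicles that carry these miRNAs and fewer copies per vesicle cannot be told apart in such a library.

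None of the 6 members passed the test across all miRNAs. Fisher's exact test (two-sided) was run for each of 336 miRNAs that had a read, and p-values were adjusted over all of them by the Benjamini-Hochberg method. Of the members, 0 were called higher in SDCSC exosomes, beside 5.06% of all miRNAs tested, and 0 were called lower, beside 9.23%. No member reached an unadjusted p under 0.05 either, the smallest being 0.107 for miR-322-5p. With 0 SDCSC reads, the lowest count possible, miR-322-5p was still not called lower. The other members except miR-16-5p had fewer parental reads, so at this depth only miR-16-5p could have been called lower. The test sets 1 library against the other, and says nothing of the spread between cultures. Each of the 6 members had a lower share in SDCSC than in parental exosomes, and 3 of them were at 0 reads there. Of all 336 miRNAs, 80.1% had a lower share in the SDCSC library, but 212 were at 0 reads there, and the parental library was 8.11 times as deep. Among the 116 miRNAs read in both libraries, 59 had a higher and 57 a lower share in SDCSC exosomes. With 0.5 reads added where a library was at 0, the median log2 ratio was -1.19 over the members and 0.21 over all 336, and both medians move with the reads added.

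**Figure D1:**
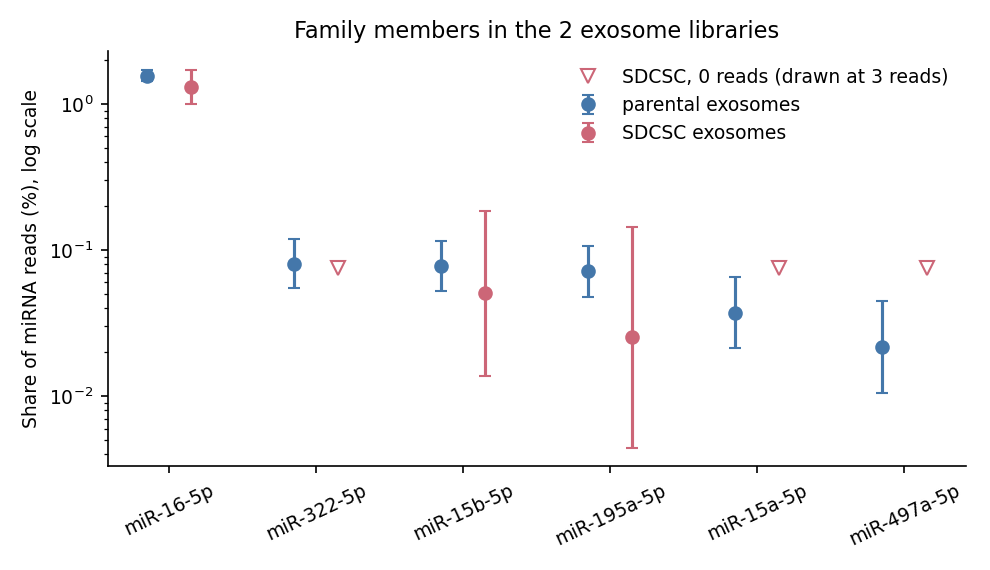
Share of miRNA reads (%, log axis) of each member in the parental and SDCSC libraries, with 95% Wilson intervals. Members at 0 SDCSC reads are drawn as open triangles at the 3-read floor of 0.0757%, and only miR-16-5p lies far above that floor, at 1.56% and 1.31%.

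The most abundant member, miR-16-5p, differed between the libraries by less than the counting error. It is one of the most widely expressed mammalian miRNAs and is produced by both the chromosome 14 and the chromosome 3 locus. Parental exosomes held 502 reads of it, or 1.56% (1.43 to 1.70%), and SDCSC exosomes 52 reads, or 1.31% (1.002 to 1.72%). The deposited values were 13710.2 and 11324 RPM. The log2 ratio was -0.25 with an exact 95% interval from -0.69 to 0.16, and Fisher's exact test gave an adjusted p of 0.752. The interval holds equal shares, and a fall beyond its lower bound lies outside it. At the parental share, 61.9 reads would have been counted in the SDCSC library against the 52 seen. Ranked by reads, miR-16-5p stood in place 17 in parental and in place 16 in SDCSC exosomes.

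The other members were rare in both libraries. In parental exosomes miR-322-5p followed with 26 reads, 0.0808% (0.0552 to 0.118%). Next came miR-15b-5p with 25 reads, 0.0777% (0.0527 to 0.115%), and miR-195a-5p with 23 reads, 0.0715% (0.0477 to 0.107%). These 3 did not differ beyond their intervals. The least abundant were miR-15a-5p with 12 reads, 0.0373% (0.0213 to 0.0652%), and miR-497a-5p with 7 reads, 0.0218% (0.0105 to 0.0449%), whose intervals overlapped as well. Levels of different miRNAs in a library also carry the preferences of adapter ligation, which were not measured here.

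In SDCSC exosomes miR-15b-5p had 2 reads and miR-195a-5p had 1 read, while miR-15a-5p, miR-322-5p and miR-497a-5p had 0. At the parental shares, 3.08 reads of miR-15b-5p, 2.83 of miR-195a-5p, 1.48 of miR-15a-5p, 3.2 of miR-322-5p and 0.863 of miR-497a-5p would have been counted. All 5 counts were below these numbers, each by few reads. The log2 ratio was -0.62 for miR-15b-5p (-3.75 to 1.38) and -1.50 for miR-195a-5p (-6.87 to 1.12), so neither direction was determined by these reads. For miR-322-5p the exact interval of the log2 ratio had an upper bound of 0.31, which left equal shares within it, and the adjusted p was 0.424 in Fisher's exact test. For miR-195a-5p, miR-15a-5p and miR-497a-5p the parental share was itself below the SDCSC floor of 0.0757%, so a fall was not detectable at this depth. For miR-322-5p and miR-15b-5p it lay only just above that floor. Since miR-322-5p was not called even at 0 reads, and miR-15b-5p had fewer parental reads, a fall was not detectable for these either.

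**Figure D2:**
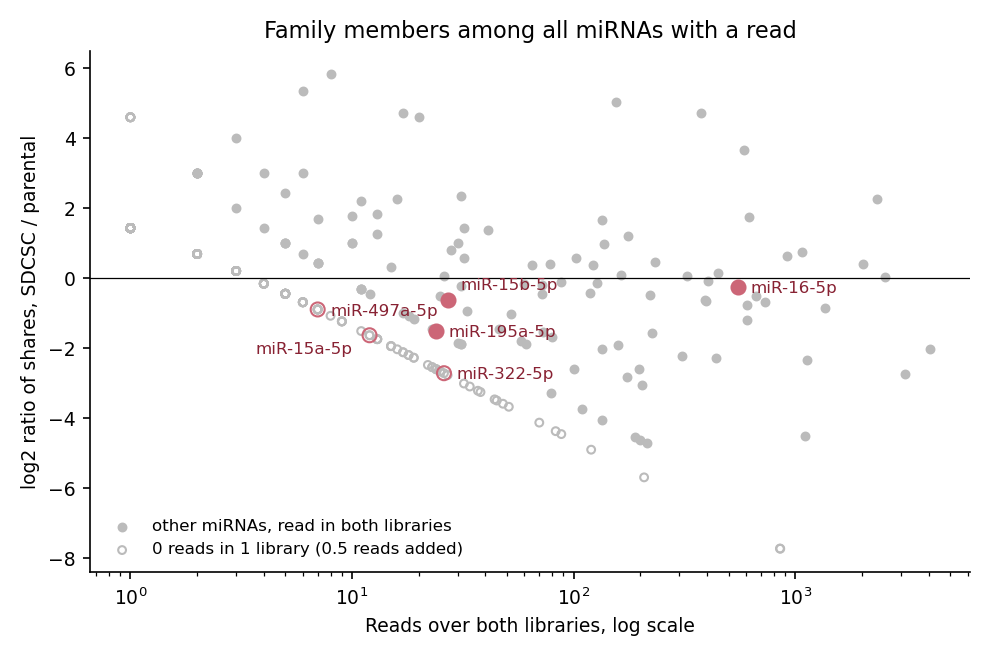
Log2 ratio of shares (SDCSC over parental) against reads over both libraries (log axis) for the 336 miRNAs with a read; open symbols had 0 reads in 1 library and are placed with 0.5 reads added. The members, in red, sit below the line of equal shares, with miR-16-5p at -0.25, and open symbols fall on curves that the added reads fix.

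Within the family, miR-16-5p made up a larger fraction of the reads in SDCSC exosomes, where the other members had 3 reads in all. In parental exosomes miR-16-5p took 84.4% of the family's reads (81.2 to 87.1%) and in SDCSC exosomes 94.5% (85.1 to 98.1%). This corresponds to 5.40 reads of miR-16-5p for each read of the other 5 members in parental and 17.3 in SDCSC exosomes. The odds ratio was 3.21 with an exact 95% interval from 1.004 to 16.4, whose lower bound lay just above equal odds. A ratio of reads within a library does not depend on how libraries are scaled. Because miR-16-5p is listed at both of its precursors, summing its entries gave it 91.5% of the parental and 97.2% of the SDCSC reads of the family.

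The other 5 members together had 93 reads in parental and 3 reads in SDCSC exosomes, where 11.5 would have been counted at the parental share. Their log2 ratio was -1.93 (-4.24 to -0.34), for a sum that was chosen after seeing the data and rests on 3 SDCSC reads. No member taken singly gave an interval apart from equal odds with miR-16-5p. For miR-15b-5p, with which miR-16-5p shares the chromosome 3 locus, parental exosomes held 20.1 reads of miR-16-5p for each read and SDCSC exosomes 26, an odds ratio of 1.29 (0.308 to 11.6). For miR-195a-5p the odds ratio was 2.38 (0.371 to 100.004).

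**Figure D3:**
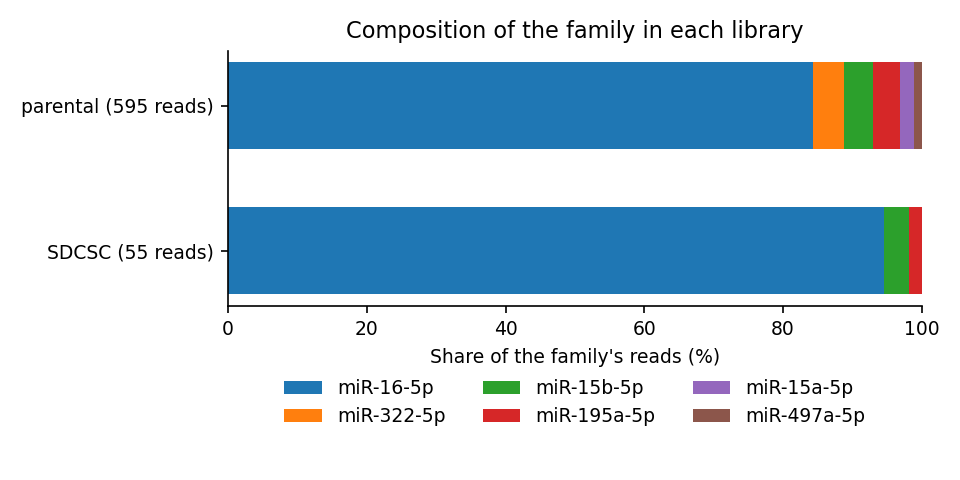
Share of the family's reads (%) held by each member, from 595 parental and 55 SDCSC reads. miR-16-5p fills 84.4% of the parental and 94.5% of the SDCSC bar, and miR-322-5p, miR-15a-5p and miR-497a-5p are absent from the latter.

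The opposite arms of the hairpins were looked at next, since a 3p arm can tell the loci of miR-16 apart where the 5p arm cannot. The hairpins Mir16-1 (chr14:61631880-61631972, minus strand) and Mir16-2 (chr3:69009902-69009996, plus strand) are shown with both mature arms in capitals. The 5p arms are the same and the 3p arms differ.
Mir16-1: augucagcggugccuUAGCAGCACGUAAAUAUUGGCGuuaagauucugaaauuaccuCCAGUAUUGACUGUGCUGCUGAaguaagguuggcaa
Mir16-2: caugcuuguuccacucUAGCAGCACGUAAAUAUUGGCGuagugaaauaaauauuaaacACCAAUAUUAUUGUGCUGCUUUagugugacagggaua

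Neither 3p arm of miR-16 was read in either library, so the reads could not divide miR-16-5p between its loci. The 5p arm gave all 502 parental reads, with a lower bound of 99.2% on its share, and all 52 SDCSC reads, with a lower bound of 93.1%. Of the other 5 hairpins, 4 had reads of the 3p arm in parental exosomes. There were 5 reads of miR-15b-3p beside 25 of the 5p arm, 5 reads of miR-322-3p beside 26, 3 reads of miR-195a-3p beside 23, and 2 reads of miR-15a-3p, fewer than the floor, beside 12. For miR-497a the 3p arm had 0 reads beside 7. Over all hairpins but those of miR-16, the 5p arm took 86.1% of 108 parental reads (78.3 to 91.4%). That interval did not overlap the one of miR-16. In SDCSC exosomes all 7 of the 3p arms were at 0, where 1.85 reads would have been counted at the parental share. A change in arm use was not detectable at this depth.

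Reads that only 1 locus can give were then summed, with miR-16-5p left out. The chromosome 14 locus was seen through 14 parental and 0 SDCSC reads, and the chromosome 3 locus through 30 parental and 2 SDCSC reads. The chromosome 11 locus gave 33 parental reads and 1 SDCSC read. At the parental shares 1.73, 3.70 and 4.07 SDCSC reads would have been counted at these 3 loci. The log2 ratio was -0.89 for the chromosome 3 locus (-4.00 to 1.09) and -2.02 for the chromosome 11 locus (-7.37 to 0.55), and both intervals held equal shares.

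The X-linked locus of miR-322-5p stood lower. Its 13 mature miRNAs had 122 reads in parental exosomes, 0.379% (0.318 to 0.453%), and 1 read in SDCSC exosomes, 0.0252% (0.00445 to 0.143%), where 15.04 would have been counted at the parental share. The log2 ratio was -3.91, with an exact 95% interval from -9.23 to -1.41. The locus is a polycistron, in which neighbouring hairpins are cut from a common transcript. Most of its reads came from miR-351-5p, which is no member of the family.

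**Figure D4:**
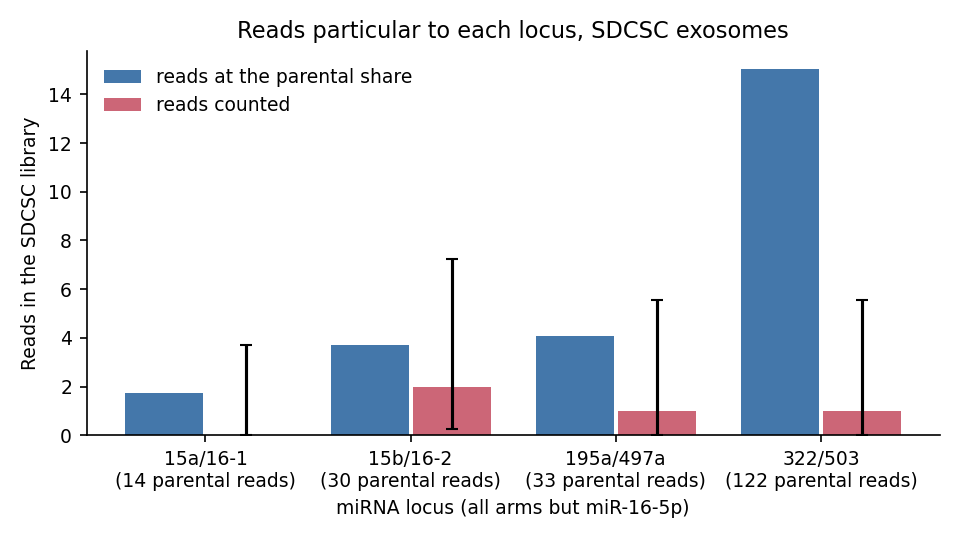
Reads counted in the SDCSC library at each of the 4 loci (red, with exact 95% Poisson intervals), beside the reads that the parental share would give (blue), miR-16-5p left out. The interval of the counted reads holds the blue bar at the first 3 loci, while at the miR-322 locus 1 read stands against 15.04.

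The neighbours of miR-322-5p on which this locus turns are shown with bases 2 to 8 in capitals.
miR-503-5p: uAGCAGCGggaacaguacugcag
miR-351-5p: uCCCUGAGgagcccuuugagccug

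The first, miR-503-5p at chrX:53054027-53054049, is related to the family, and within its first 8 bases it differed from miR-16-5p by A8G alone. It had 0 reads in parental exosomes and 1 read in SDCSC exosomes, below the floor. The second, miR-351-5p at chrX:53053315-53053338, carries the seed of miR-125a-5p and miR-125b-5p. Its 83 parental reads stood against 0 in SDCSC exosomes, and the exact 95% interval of the log2 ratio ended at -1.44 (adjusted p = 0.00116, Fisher's exact test). It was the 1 of 8 tested cluster neighbours that was called, with 0 higher and 1 lower, beside 5.06% and 9.23% of all miRNAs. The other 12 miRNAs of the locus had 39 parental reads and 1 SDCSC read, and their log2 ratio of -2.27 (-7.60 to 0.30) held equal shares. Of the 13 miRNAs listed as neighbours, miR-195b lies on chromosome 2 by the RefSeq table and was at 0 in both libraries.

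**Figure D5:**
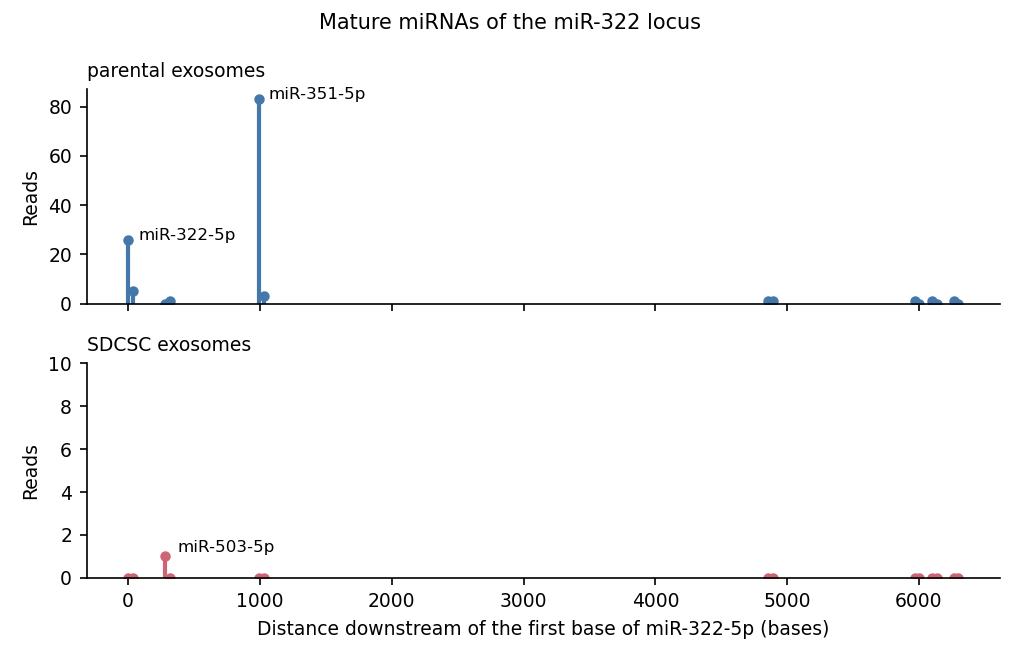
Reads of each mature miRNA of the miR-322 locus against its distance in bases downstream of the first base of miR-322-5p, in parental (upper) and SDCSC exosomes (lower, on a finer scale). The 83 reads of miR-351-5p and the 26 of miR-322-5p stand out in the parental library, and the SDCSC library holds 1 read, of miR-503-5p; miR-450a-5p is drawn at both of its precursors.

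The seed itself occurs in further miRNAs. At bases 2 to 8 it is carried by 10 mature names of the RefSeq list. Of these, 4 are not members, namely miR-195b, miR-6342, miR-6353 and miR-6419, and they had 0 reads in both libraries, where the 3-read floor was 0.00933% in parental and 0.0757% in SDCSC exosomes and the upper Wilson bounds were 0.0119% and 0.0968%. Among the 1679 mature names of that list, all reads counted with this seed at bases 2 to 8 thus belonged to the 6 members. The libraries list 1915 miRNAs, and names outside the RefSeq list were not searched.

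Circulating blood cells are a rich source of miR-16, so their markers are given beside it. Both libraries come from cultured cells, and only the parental medium held serum, which had been depleted of exosomes. The erythroid miR-451a, miR-486a-5p, miR-486b-5p, miR-144-3p and miR-144-5p, 5 of 5 of which were detected, summed to 1803 reads in parental exosomes (5.61%) and to 0 in SDCSC exosomes. Of these, miR-451a, miR-486a-5p and miR-486b-5p were called lower and 0 higher, beside 9.23% and 5.06% of all miRNAs tested. The genes of miR-486a and miR-486b overlap on opposite strands and had 856 and 853 parental reads, so their reads are uncertain as those of separate miRNAs. Without miR-486b-5p the markers summed to 950 parental reads (3.03%), with 2 called lower, and the family log2 ratio was -0.45. Leukocyte markers, 4 of 5 of which were detected in parental exosomes, summed to 239 reads (0.743%) there and 1 read (0.0252%) in SDCSC exosomes. Of the parental reads 213 were of miR-142a-5p, the 1 of 4 tested that was called lower. The others, miR-142a-3p, miR-223-3p and miR-150-5p, had 9, 12 and 5 parental reads and were not called. Both lists had far lower shares in SDCSC exosomes, while miR-16-5p held 0.84 times its parental share. With the red cell markers left out of the totals the log2 ratio of miR-16-5p was -0.33, and its adjusted p was 0.475 in the exact binomial test used under other scalings. The part of blood-derived RNA in the values of the family was not tested.

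By their log2 ratios, the miRNAs most like the family total were let-7d-5p, miR-103-3p and miR-151-5p, out of 67 others with at least 50 reads over both libraries. Likeness was the absolute difference of log2 ratios over the 2 libraries. The reads went from 108 to 10 for let-7d-5p (log2 ratio -0.41), from 66 to 6 for miR-103-3p (-0.44) and from 202 to 18 for miR-151-5p (-0.47). None of the 3 was called.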

How the data were processed

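The authors extracted RNA with the miRNeasy kit, prepared TruSeq small RNA libraries of 18 to 40 nt fragments, clipped adapters and dropped reads under 18 nt with Trimmomatic. The deposited unit is RPM per mature miRNA entry, 1 column for each library, and the submitters' processing notes name mm10. The study's methods describe ncPRO-seq with RepeatMasker and Rfam features, scaled for reads that map more than once. Whether it made the deposited miRNA values, and the miRBase release, are not given in the sources used here. Reads were recovered by dividing by the smallest RPM above 0 (27.31 in parental, 217.77 in SDCSC), which gave whole numbers within 0.2 reads for 100% of values. A miRNA listed more than once took its highest entry. The 2 entries of miR-16-5p were equal in both libraries.

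RPM values would be tested on a log scale, which needs replicates, so shares, ratios with exact conditional 95% intervals and Fisher's exact test on recovered reads were used, as the design set out for reads, with Benjamini-Hochberg adjustment over all miRNAs with any read and calls at 0.05. Where a library had 0 reads, 0.5 reads were added to both for plots, rankings, log2 ratios with their medians, and the direction of calls. The intervals and tests used the reads without this addition. The count test called 17 miRNAs higher and 31 lower. Under other scalings an exact binomial test was used. The members and lists were chosen with earlier results of these data known, and they include the opposite arms, the cluster neighbours, cell-cycle-restraining miRNAs and red cell, leukocyte and colon epithelium markers. Named outside the family were list members with a read and the 3 miRNAs with at least 50 reads whose ratio was nearest that of the family. Scripts were checked on simulated data. Loci are from GENCODE M21 and sequences from RefSeq, where all 6 members matched by name. Tools were Python 3.11.15, scipy 1.17.1, pandas 2.3.3, numpy 2.4.6, matplotlib 3.10.9, R 4.3.3 and edgeR 4.0.16, the last for TMM factors only.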

Additional observations from a re-analysis of the deposited data

How the results depend on the processing

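No paired analysis was possible because there is only 1 library for either kind of exosome. Other scalings were TMM factors, the median of ratios, and totals without the most abundant miRNA of each library or without the red cell markers. Under these and sums of entries, the family log2 ratio ranged from -0.50 to -0.25, and 0 members were called in either direction. Over all 336 miRNAs these settings called 17 or 18 higher and 28 to 35 lower. Requiring at least 10 reads over both libraries left 136 miRNAs, of which 17 were called higher and 37 lower. Again 0 members were called, but miR-497a-5p, with 7 reads, was not among those tested. Without library scaling, which ignores the difference in depth, the family log2 ratio was -3.44 and 6 members were called lower. That setting called 134 of all 336 miRNAs lower and 3 higher. Leaving out miR-16-5p, an alternative chosen after seeing the data, moved the family log2 ratio to -1.93, and leaving out miR-486b-5p, chosen likewise, gave -0.45 with 0 members called. With sums of entries, miR-16-5p took 91.5% of the family's parental reads, and the 5p arm took 98.7% of parental hairpin reads in place of 97.5%, because the 2 entries of miR-16-5p are then counted in full. With 5 reads added to both libraries the log2 ratio changed sign for miR-15a-5p (1.25), miR-15b-5p (0.92), miR-195a-5p (0.80), miR-322-5p (0.39) and miR-497a-5p (1.76), and with 1 read added it did for miR-497a-5p (0.0203). Added reads weigh more in the shallower library, and the sign for these 5 members depends on that choice. The 3964 reads of the SDCSC library limit every statement on members other than miR-16-5p.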

Other observations

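A chosen list of other miRNAs known to restrain the cell cycle was sparse in SDCSC exosomes. The list is not complete, and miRNAs outside it with such a role were not examined. The 9 listed ones, of the miR-34, miR-449 and miR-192 families and miR-194, had 92 reads in parental exosomes (0.286%) and 1 read in SDCSC exosomes (0.0252%), where 11.3 would have been counted at the parental share. Of the 8 with a read, 0 were called higher and 0 lower by Fisher's exact test, against 5.06% and 9.23% of all miRNAs. None could have been called lower at this depth, since miR-192-5p, with the most parental reads of them, was not called at 0 SDCSC reads. The p53-induced miR-34c-5p had 25 and 0 reads, with an upper bound of 0.37 on the exact interval of its log2 ratio, and miR-34a-5p had 6 reads and 1 read. The intestinal miR-192-5p had 48 and 0 reads, with an upper bound of -0.63 on that interval, an unadjusted p of 0.00854 and an adjusted p of 0.0574 in Fisher's exact test. It also stands in the list of colon epithelium markers, of which 3 of 8 were detected in parental and 2 of 8 in SDCSC exosomes, with 55 and 2 reads in all.

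The letters of the family's seed also open miR-103-3p and miR-107-3p, 1 base earlier, at bases 1 to 7. The sequences are shown with these letters in capitals.
miR-103-3p: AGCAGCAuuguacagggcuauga
miR-107-3p: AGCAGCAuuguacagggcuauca

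These were looked up after the seed search, without regard to their levels. They differ by G22C over 23 bases, and their reads are uncertain as those of separate miRNAs. The reads were 66 in parental and 6 in SDCSC exosomes for miR-103-3p, a log2 ratio of -0.44 (exact 95% interval -1.94 to 0.76), and 23 and 3 for miR-107-3p, 0.08 (-2.30 to 1.81). Neither was called by Fisher's exact test.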
